A study of Homo sapiens with 12 samples.

Results

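The zinc finger (ZNF) genes of chromosome 19 were described in THP-1, an acute myeloid leukaemia line that carries the MLL-AF9 fusion, after short inhibition of the kinases that drive transcription. Members were the protein-coding genes of GENCODE v29 on chromosome 19 whose symbol is ZNF followed by a number and at most 1 letter. There were 246 such genes, and 182 of them had at least 120 counts over the 12 libraries in their highest row. All 182 were among the 15831 genes tested. Cells were exposed for 2 hours to AZ5576, known as an inhibitor of CDK9, to THZ531, an inhibitor of CDK12 and CDK13, to YKL5124, an inhibitor of CDK7, or to the vehicle DMSO. All groups received 1 mM 4-thiouridine for the last 10 minutes, and each group had 3 libraries of the ends of polyadenylated RNA. The counts used here are named as total read counts. They are not counts of labelled reads, so a fall or rise is not one measured in newly made RNA. The labels give no dose. They also leave it unsaid whether the libraries of a group were grown apart, and the spread behind each p-value may be technical. The vehicle columns carry the name UT, which the labels do not use. They were taken as DMSO because the other 9 columns match sample titles by name.

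ZNF proteins of this family bind DNA through tandem C2H2 zinc fingers, each of which holds a zinc ion and reads a few bases. Many also carry a KRAB box, which recruits the corepressor TRIM28 and, through it, the histone methyltransferase SETDB1, and are known for silencing transposable elements. Chromosome 19 holds the large tandem clusters in which the family expanded. CDK9, as part of P-TEFb, releases paused RNA polymerase II, CDK12 and CDK13 are known for sustaining elongation and the use of distal transcript ends, and CDK7 is the kinase of TFIIH.

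Human depth was 5048370 to 12743630 counts per library with 1 row per gene, and AZ5576 replicate 2 was the shallowest. Of 10 myeloid markers, 9 had at least 1 count per 1000000 (CPM) in DMSO, and the exception was CD14. Their summed level was 868 to 945 CPM in AZ5576, 946 to 992 CPM in THZ531 and 787 to 852 CPM in YKL5124. It was 685 to 724 CPM in DMSO. The largest part was ELANE, with means of 532.7, 577.1 and 456.2 CPM in this order of inhibitors, against 385.9 CPM in DMSO. Not every marker rose under each inhibitor: CD33 had means of 22.62, 32.04 and 20.57 CPM, against 24.33 CPM in DMSO. The part of the shift in summed level in the results was not tested. Of 15 markers of T cells, B cells, epithelium, fibroblasts and red cells, 7 were at 0 in every library and 1 reached 1 CPM in DMSO. Their summed level was 5.75 to 10.5 CPM in AZ5576, 9.24 to 12.02 CPM in THZ531 and 8.73 to 9.51 CPM in YKL5124, against 7.78 to 9.80 CPM in DMSO. In bulk libraries such as these, fewer expressing cells and less RNA per cell cannot be told apart. CPM are scaled by TMM factors, so a rise or fall is relative to the other human genes, and a call is an adjusted p under 0.05 in edgeR's quasi-likelihood test.

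The ZNF genes of chromosome 19 took up a smaller part of the counted RNA under each inhibitor. They held 0.234% ± 0.0056 of counts in AZ5576, 0.182% ± 0.00056 in THZ531 and 0.278% ± 0.00096 in YKL5124, against 0.317% ± 0.0018 in DMSO (SD, n = 3 each). The median level of the 182 genes was 2.97 to 3.17 CPM in AZ5576 libraries, 2.54 to 2.65 CPM in THZ531 libraries and 5.16 to 5.27 CPM in YKL5124 libraries, against 6.21 to 6.52 CPM in DMSO libraries. None of the inhibitor libraries overlapped the DMSO libraries in either measure.

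Under AZ5576, 128 of the 182 genes were called lower and 10 higher than in DMSO. Over all genes tested, 23.1% were called lower and 18.6% higher. The median log2 fold change of the ZNF genes was -0.79, and that of all genes was 0.01. Under THZ531, 135 were lower and 11 higher, against a background of 32.9% lower and 30.4% higher, and the median was -1.18. Under YKL5124, 52 were lower and 7 higher, against a background of 13.5% and 7.25%, with a median of -0.27. Falls of at least 2-fold were called for 76 genes under AZ5576, for 104 under THZ531 and for 11 under YKL5124. Of those under THZ531, 48 were at least 4-fold. The share of all genes with falls of these sizes was not counted. The lower quartile of log2 fold changes over all genes was -0.37, -0.67 and -0.23 in this order, and that of the ZNF genes was -1.37, -2.02 and -0.55. The 3 comparisons share the DMSO libraries. All 3 AZ5576 libraries lay below all DMSO libraries for 127 members, all THZ531 libraries for 137 and all YKL5124 libraries for 82. Over all genes tested, 26.2%, 34.5% and 20.5% had libraries below DMSO in this way.

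**Figure D1:**
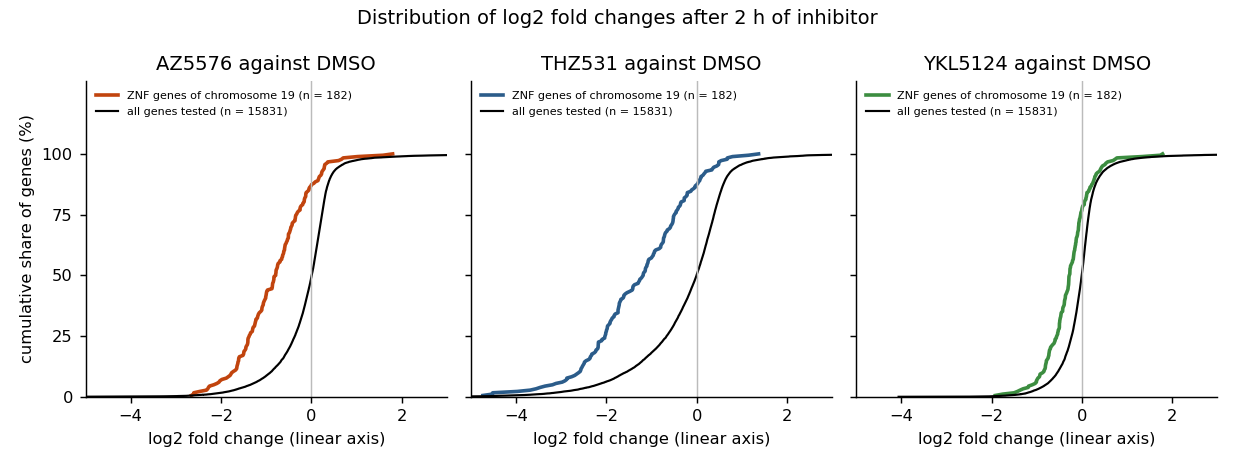
Cumulative share of genes (%) against log2 fold change for each inhibitor against DMSO, with the 182 ZNF genes of chromosome 19 in colour and all 15831 genes tested in black; the axis leaves out all-gene values below -5 or above 3. The coloured curves lie left of the black ones, with medians of -0.79, -1.18 and -0.27.

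With scaling to the Drosophila counts, the median of all genes moved to -0.17 under AZ5576, -0.37 under THZ531 and -0.07 under YKL5124. The ZNF medians then were -0.97, -1.55 and -0.34, so their distance to all genes was nearly the same (-0.80, -1.18 and -0.27, as with TMM). Of all calls against DMSO, 10.3% were then higher under AZ5576, 13.2% under THZ531 and 21.1% under YKL5124, against 44.7%, 48.0% and 34.9% with TMM. Among the ZNF genes, 133 were lower and 3 higher under AZ5576, 155 and 3 under THZ531, and 55 and 5 under YKL5124. Of these ZNF calls, 2.21%, 1.90% and 8.33% were higher, against 7.25%, 7.53% and 11.9% with TMM. The share of all genes called lower was not counted for this scaling, and the TMM shares do not stand for it.

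The direct comparisons between inhibitors, 3 pairs in all, set inhibitor groups against each other without DMSO as the reference. They came from the same fit of all 12 libraries, so DMSO libraries entered the scaling and the estimate of spread. The labels do not give the doses. Between THZ531 and AZ5576, 83 ZNF genes were lower and 39 higher in THZ531, where 27.8% and 27.1% of all genes were, and the median difference was -0.42. Between YKL5124 and AZ5576, 6 were lower and 81 higher in YKL5124, against 6.23% and 9.6% of all genes, with a median of 0.50. Between YKL5124 and THZ531, 21 were lower and 112 higher in YKL5124, against 30.5% of all genes each way, with a median of 0.95. A member without a call in any of these pairs is not shown to respond alike.

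The largest differences between THZ531 and AZ5576 were in ZNF547 (-4.34, SE 0.40), ZNF714 (-3.49, SE 0.24) and ZNF526 (-3.26, SE 0.12), lower in THZ531, and in ZNF296 (2.83, SE 0.24), ZNF235 (2.82, SE 0.31) and ZNF274 (2.77, SE 0.21), higher in THZ531. The ZNF274 difference was -0.23 in its full coding row, and the ZNF235 difference was 3.70 without AZ5576 replicate 3. Between YKL5124 and AZ5576, ZNF235 (2.56, SE 0.31), ZNF225 (1.94, SE 0.19) and ZNF181 (1.94, SE 0.31) were most above, and the ZNF235 difference was 3.43 without AZ5576 replicate 3 and was not called in its full coding row (1.19). ZNF581 (-0.68, SE 0.13), ZNF850 (-0.55, SE 0.12) and ZNF331 (-0.43, SE 0.12) were most below, the last a call that was lost without AZ5576 replicate 3 (-0.39), YKL5124 replicate 2 (-0.41) or YKL5124 replicate 3 (-0.39). Between YKL5124 and THZ531, ZNF616 (68 counts against 2), ZNF606 (4.52, SE 0.36) and ZNF547 (4.28, SE 0.40) were most above (ZNF606 at 5.65 without THZ531 replicate 3), and ZNF296 (-2.65, SE 0.23), ZNF628 (-1.48, SE 0.30) and ZNF749 (-1.26, SE 0.14) most below.

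The ZNF genes of other chromosomes, of which 212 of 263 were tested, had medians of -0.61 under AZ5576, -1.01 under THZ531 and -0.28 under YKL5124. Of them, 131 were lower under AZ5576, 152 under THZ531 and 81 under YKL5124. The other 705 protein-coding genes of chromosome 19 had medians of 0.09, 0.02 and -0.00, and 158, 225 and 101 of them were lower. The 8 tested neighbours on chromosome 19 with other zinc finger names (ZFP, ZSCAN, ZIK, ZIM or ZBTB) had medians of -0.92, -1.41 and -0.53. Differences between these groups of genes were not tested, and the falls were thus not shown to be particular to chromosome 19.

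The largest falls of all came under THZ531. ZNF616 (ENSG00000204611, chromosome 19, 52113091 to 52139922, a KRAB protein with 21 fingers) had 1, 1 and 0 counts in THZ531 libraries, against 32, 27 and 27 counts in DMSO libraries. Its summed level in THZ531 was 30.6 times lower, with a 95% exact interval of 8.20 to 256 that covers counting error only (log2 fold change -4.73, SE 0.63, adjusted p = 1.42e-07). In the other groups ZNF616 stood at 1.04, 0.198 and 0.751 CPM in AZ5576 and at 2.91, 2.61 and 1.33 CPM in YKL5124, so the YKL5124 values overlapped those of DMSO (2.37, 2.57 and 2.12 CPM).

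ZNF606 (ENSG00000166704, chromosome 19, 57977053 to 58003349) had 0.26, 0 and 0.535 CPM in THZ531, against 6.22, 6.38 and 6.6 CPM in DMSO. The log2 fold change was -4.52 (SE 0.36, adjusted p = 4.04e-12). The gene was also lower in AZ5576, at 2.45 ± 0.592 CPM (SD, n = 3), and in YKL5124 its 6.42 ± 0.439 CPM did not pass the test against the 6.40 ± 0.191 CPM of DMSO (log2 fold change 0.01, SE 0.18, adjusted p = 0.979). Without THZ531 replicate 3 the THZ531 fall was -5.63, and with the counts of all rows of the gene summed it was -1.55.

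ZNF557 (ENSG00000130544, chromosome 19, 7069444 to 7087968), which lies outside the clusters, was measured with more counts. It had 2.99, 2.32 and 2.46 CPM in THZ531, against 29.3, 33.7 and 28.2 CPM in DMSO, an 11.7-fold fall (log2 difference -3.55, SE 0.16, adjusted p = 6.27e-18). In AZ5576 it had 17.4 ± 2.07 CPM, and in YKL5124 25.6 ± 3.03 CPM. The AZ5576 libraries lay between those of THZ531 and DMSO, and those of YKL5124 were all below DMSO without passing the test (-0.25, SE 0.10, adjusted p = 0.0789).

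Of the other leading falls under THZ531, ZNF546 had 2 counts and ZNF347 had 3 in the THZ531 libraries together, against 74 and 72 in DMSO. Their summed levels were 26.3 times lower (95% exact interval 7.02 to 221) and 17.1 times lower (5.61 to 84.6). Their fitted log2 fold changes were -4.52 and -3.97. They were -7.40 for ZNF546 without THZ531 replicate 3, which held both of its counts, and -4.84 for ZNF347 without THZ531 replicate 2, values that depend on the few counts left and are no bounds. All THZ531 libraries of both genes lay below all DMSO libraries. ZNF546, with 121 counts in all, was the member nearest to the minimum, and ZNF613, with 113, was the nearest left out. ZNF175, known as OTK18, fell to 0.397 ± 0.225 CPM in THZ531, against 5.04 ± 0.578 CPM in DMSO. ZNF671 and ZNF324B fell by 3.47 (SE 0.46) and 3.36 (SE 0.39) on the log2 scale. Without THZ531 replicate 3 the value of ZNF671 was -4.37.

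Under AZ5576 other genes led. ZNF649 (ENSG00000198093, chromosome 19, 51889224 to 51905040) had 0.399, 0.396 and 0.584 CPM in AZ5576, against 2.82, 3.05 and 3.3 CPM in DMSO. The fall was 6.31-fold (log2 fold change -2.66, SE 0.34, adjusted p = 2.72e-07), and no library of the groups overlapped. Its levels in THZ531 (1.42 ± 0.196 CPM) and YKL5124 (1.12 ± 0.289 CPM) were also below those of DMSO, by 1.10 and 1.43 on the log2 scale. With all rows of the gene summed, the AZ5576 fall was -1.52.

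ZNF776 (ENSG00000152443, chromosome 19, 57746796 to 57758159) had 0.799, 0.396 and 0.751 CPM in AZ5576, 0.651, 0.772 and 0.856 CPM in THZ531 and 1.21, 1.58 and 2.33 CPM in YKL5124, against 5.04, 3.62 and 4.32 CPM in DMSO. It was thus lower under all inhibitors, with log2 fold changes of -2.60 (SE 0.31), -2.49 (SE 0.31) and -1.30 (SE 0.25). ZNF17 had nearly the same falls under AZ5576 and THZ531 (-2.29, SE 0.29, and -2.36, SE 0.30). ZNF773 fell by 2.60 (SE 0.17) under AZ5576 and had 2.92 ± 0.296 CPM there, against 17.97 ± 0.786 CPM in DMSO. ZNF443 and ZNF799, neighbours in the third cluster, fell by 2.47 (SE 0.43) and 2.26 (SE 0.41). Of the 31-base words at their transcript ends, 36.3% and 35.9% occur in transcripts of other genes, so counts may be split with other genes. Which genes share these words was not recorded. The AZ5576 value of each rests on few counts: it was -3.28 for ZNF443 without AZ5576 replicate 3 and -3.23 for ZNF799 without AZ5576 replicate 1.

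Under YKL5124 the falls were smaller. ZNF443 led with -1.92 on the log2 scale (SE 0.39, adjusted p = 0.000471). ZNF628 had 1.09, 1.03 and 1.5 CPM in YKL5124, against 4.89, 3.9 and 3.62 CPM in DMSO (log2 fold change -1.75, SE 0.28, adjusted p = 1.55e-05). ZNF628 was also lower in AZ5576 (-1.496, SE 0.27), whereas THZ531 and DMSO libraries overlapped (-0.28, SE 0.23, adjusted p = 0.307). The difference between YKL5124 and THZ531 was itself called (-1.48, SE 0.30, adjusted p = 9.19e-05). ZNF784 had 10.5, 10.6 and 12.6 CPM in YKL5124, against 25.8, 22.7 and 28.3 CPM in DMSO, and fell by 1.18 (SE 0.12). Its libraries were apart in all comparisons with DMSO, at 6.14 to 8.26 CPM in AZ5576 and 4.60 to 5.18 CPM in THZ531. ZNF283 fell by 1.19 (SE 0.20) under YKL5124. ZNF546 fell by 1.37 (SE 0.41), a call that was lost without YKL5124 replicate 3 (-1.17) or DMSO replicate 2 (-1.23).

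A few members went the other way under AZ5576 and YKL5124 while they fell under THZ531. ZNF547 (ENSG00000152433, chromosome 19, 57363477 to 57379565) had 4.15, 3.76 and 4.26 CPM in AZ5576, 0.26, 0.11 and 0.214 CPM in THZ531 and 3.88, 4.29 and 3.66 CPM in YKL5124, against 0.963, 1.43 and 1.18 CPM in DMSO. No group with a call overlapped DMSO. The log2 fold changes were 1.80 (SE 0.25), -2.54 (SE 0.50) and 1.74 (SE 0.25), and THZ531 was 4.34 below AZ5576 (SE 0.40, adjusted p = 9.43e-11).

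ZNF714 (chromosome 19, 21082159 to 21125270) was likewise above DMSO in AZ5576 and YKL5124 and below it in THZ531. It stood at 10.2 ± 1.34 CPM in AZ5576, 0.902 ± 0.336 CPM in THZ531 and 11.9 ± 1.52 CPM in YKL5124, against 3.49 ± 0.359 CPM in DMSO, with 38.9% of its end words shared with other genes. With all rows of ZNF714 summed, its THZ531 value was -1.05 in place of -1.90.

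ZNF526 (chromosome 19, 42220271 to 42228201), which has no KRAB motif and lies outside the clusters, was measured more deeply. It had 52.7, 48.7 and 54.4 CPM in AZ5576, 4.82, 6.18 and 5.24 CPM in THZ531 and 48.6, 45.0 and 39.2 CPM in YKL5124, against 32.7, 30.2 and 33.3 CPM in DMSO. Its fall under THZ531 was 5.90-fold (log2 fold change -2.56, SE 0.12, adjusted p = 5.18e-17), and its rises under AZ5576 and YKL5124 were 1.63-fold and 1.37-fold. The groups did not overlap in any comparison with DMSO.

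ZNF296 (ENSG00000170684, chromosome 19, 45071500 to 45076588), whose mouse counterpart is known from pluripotent cells, had the opposite order. It had 1.76, 2.18 and 1.09 CPM in AZ5576, 8.85, 13.6 and 10.9 CPM in THZ531 and 1.45, 2.24 and 1.58 CPM in YKL5124, against 6.3, 4.0 and 4.64 CPM in DMSO. Its rise under THZ531 was 2.22-fold (log2 fold change 1.15, SE 0.19, adjusted p = 3.54e-06), and it fell by 1.68 (SE 0.27) under AZ5576 and 1.5 (SE 0.25) under YKL5124. THZ531 was 2.83 above AZ5576 (SE 0.24, adjusted p = 2.58e-11). ZNF160 fell to 1.09 ± 0.224 CPM in THZ531 and rose to 10.0 ± 0.356 CPM in YKL5124, against 7.08 ± 1.07 CPM in DMSO. The rise (log2 fold change 0.51, SE 0.15) lost its call without DMSO replicate 3 (0.39) or with Drosophila scaling (0.46).

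**Figure D2:**
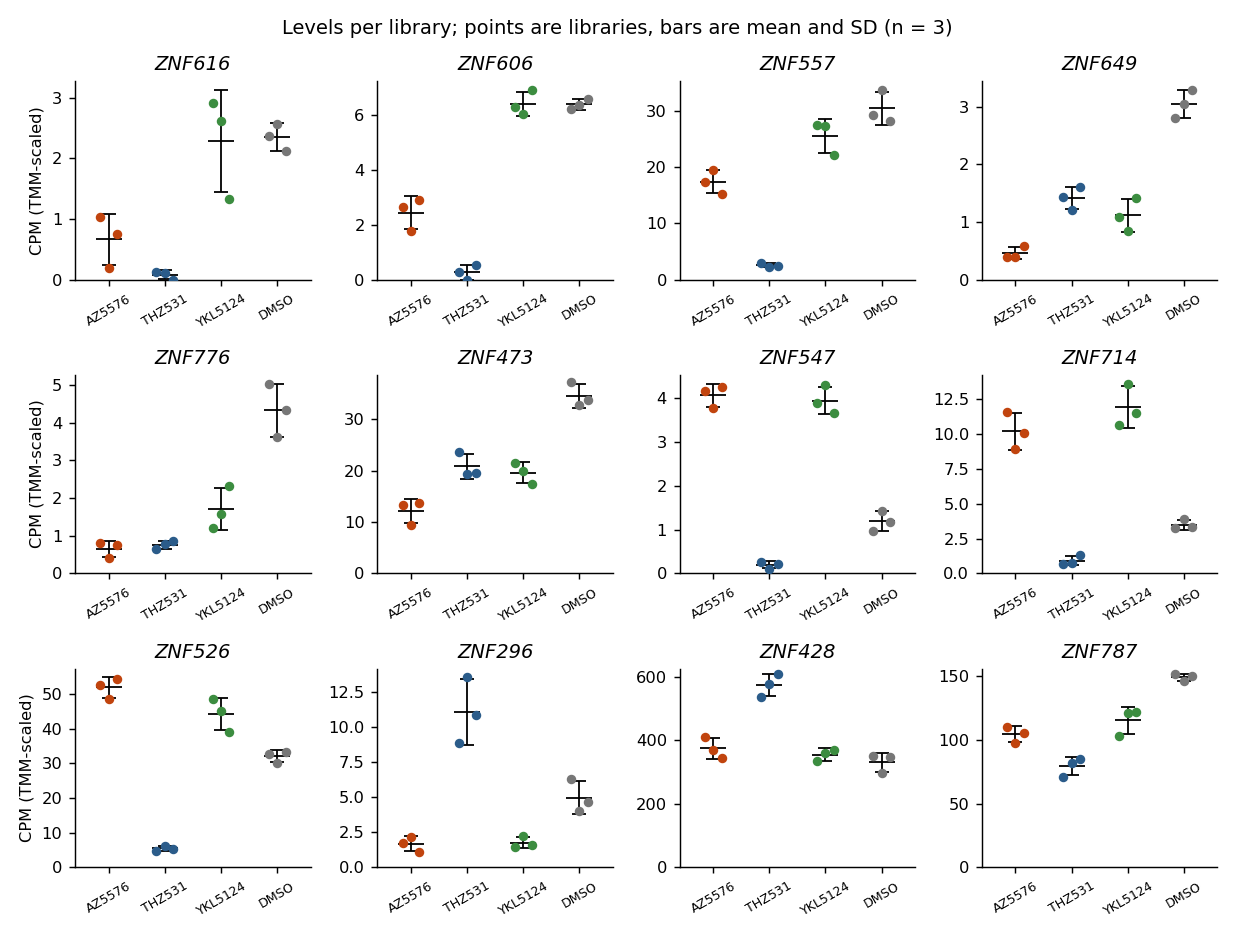
CPM (TMM-scaled, axes from 0) of 12 members in each library, with points for libraries and bars for the mean and SD of 3 libraries. ZNF616, ZNF606 and ZNF557 were lowest in THZ531, ZNF547, ZNF714 and ZNF526 were above DMSO in AZ5576 and YKL5124 and below it in THZ531, and ZNF296 had its highest values in THZ531.

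Besides ZNF296, the largest rises under THZ531 were in ZNF749 (1.37, SE 0.13), ZNF428 (0.80, SE 0.07), ZNF580 (0.68, SE 0.10) and ZNF529 (0.67, SE 0.23), all log2 fold changes. The counted row of ZNF749 is a processed transcript that overlaps AC003002.2, and all of its end words occur in other transcripts, so its rise cannot be assigned to ZNF749. ZNF428 had 538, 579 and 608 CPM in THZ531, above the 349, 297 and 347 CPM of DMSO. The rise of ZNF529 lost its call without THZ531 replicate 2 (0.48). With Drosophila scaling, ZNF580 (0.32) and ZNF529 (0.31) were no longer called. The remaining leading rises were smaller: ZNF331, known as an imprinted gene, and ZNF850 rose by 0.34 (SE 0.12) and 0.29 (SE 0.11) under AZ5576, and neither was called with Drosophila scaling (0.15 and 0.10). ZNF331 lost its call without AZ5576 replicate 3 (0.29), DMSO replicate 1 (0.26) or DMSO replicate 2 (0.31), and ZNF850 without AZ5576 replicate 1 (0.26), AZ5576 replicate 3 (0.29), DMSO replicate 1 (0.24) or DMSO replicate 2 (0.28). ZNF461 and ZNF224 rose under YKL5124 by 1.33 (SE 0.33) and 0.53 (SE 0.09), with 62.2% and 33.7% of end words shared and counted rows that do not stand for the full coding transcript. In their full coding rows neither rise was called (1.07 and 0.12).

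The members with the highest levels in DMSO were ZNF428, ZNF90, ZNF787, ZNF146 and ZNF121. Reads came from transcript ends, so CPM were not divided by length. ZNF90 was measured through a transcript marked for nonsense-mediated decay, and its full coding row had 0 counts in every group. Its level is thus not that of the full coding transcript. The counted row of ZNF90 had 373 ± 81.2 CPM in AZ5576, 322 ± 19.045 CPM in THZ531 and 285 ± 21.2 CPM in YKL5124, against 302 ± 62.0 CPM in DMSO. The libraries of each inhibitor overlapped those of DMSO, and its call under AZ5576 (0.30, SE 0.11) was lost without AZ5576 replicate 2 (0.12), DMSO replicate 1 (0.20) or DMSO replicate 3 (0.23). ZNF787 had 104 ± 6.14 CPM in AZ5576, 79.4 ± 7.30 CPM in THZ531 and 115 ± 10.6 CPM in YKL5124, against 149 ± 2.73 CPM in DMSO. ZNF146, known as OZF and made almost wholly of fingers, had 61.3 ± 8.39 CPM in AZ5576, 58.1 ± 1.78 CPM in THZ531 and 71.3 ± 5.27 CPM in YKL5124, against 86.9 ± 0.859 CPM in DMSO. ZNF121 fell by 0.36 (SE 0.07), 0.83 (SE 0.07) and 0.42 (SE 0.07) in the same order of inhibitors. The falls of these 3 abundant members were called under each inhibitor and were below 2-fold.

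Members with a known role were described in every group. ZNF91 and ZNF93 are known for silencing retrotransposons of the SVA and LINE-1 families. ZNF91 had 34.5, 34.1 and 36.5 CPM in AZ5576, 30.99, 21.6 and 26.6 CPM in THZ531 and 35.6, 37.3 and 32.8 CPM in YKL5124, against 30.5, 30.6 and 30.2 CPM in DMSO. None of its comparisons passed the test (log2 fold changes 0.21, -0.21 and 0.21, adjusted p = 0.0774, 0.0662 and 0.114). With Drosophila scaling the THZ531 value was called at -0.57, as it was without THZ531 replicate 1 (-0.36) or AZ5576 replicate 2 (-0.24), and the AZ5576 value was called without THZ531 replicate 1 (0.22) or THZ531 replicate 2 (0.22). ZNF93 had 9.35, 9.31 and 11.7 CPM in AZ5576, 4.69, 5.29 and 5.88 CPM in THZ531 and 13.3, 13.9 and 13.9 CPM in YKL5124, against 23.6, 21.0 and 27.4 CPM in DMSO. It fell in all of them, by 1.23 (SE 0.12), 2.18 (SE 0.14) and 0.81 (SE 0.11) on the log2 scale, and no inhibitor library reached the DMSO range.

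ZNF473 encodes a protein of histone pre-mRNA processing that works with the U7 snRNP. It had 13.3, 9.51 and 13.7 CPM in AZ5576, 23.7, 19.4 and 19.5 CPM in THZ531 and 21.5, 19.9 and 17.4 CPM in YKL5124, against 37.3, 32.8 and 33.7 CPM in DMSO. The falls were 1.45 (SE 0.11), 0.74 (SE 0.11) and 0.83 (SE 0.10) on the log2 scale, and no inhibitor library reached the DMSO range. ZNF350, known as the BRCA1 partner ZBRK1, had 2.87 ± 0.456 CPM in AZ5576, 5.41 ± 0.424 CPM in THZ531 and 5.66 ± 0.388 CPM in YKL5124, against 7.27 ± 1.26 CPM in DMSO. Its fall of 1.38 (SE 0.19) under AZ5576 was called. Its fall of 0.41 (SE 0.17) under THZ531 was lost without DMSO replicate 2 (-0.27), THZ531 replicate 1 (-0.38) or THZ531 replicate 2 (-0.44), and YKL5124 did not pass (-0.35, SE 0.16).

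ZNF304, known for recruiting TRIM28 to silenced genes, fell by 1.143 (SE 0.14) under THZ531 and had -0.31 (SE 0.13, adjusted p = 0.0478) under AZ5576, which 15 alternatives moved past the threshold, and -0.05 (SE 0.12) under YKL5124. ZNF675, known as a TRAF6-binding protein, fell by 0.61 (SE 0.14) under AZ5576 and 0.52 (SE 0.14) under THZ531, but its counted row is a retained-intron transcript, and its full coding row, with 47 DMSO counts, had no call (-0.27 and -0.11).

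ZNF genes lie on chromosome 19 in clusters. Runs of members separated by at most 500 kb, with at least 5 annotated members, gave 10 clusters that held 169 of the 182 genes, numbered from the end of the short arm. Every cluster had a negative median under every inhibitor. Under THZ531 the medians ran from -0.75 in cluster 4 (19.67 to 24.13 Mb, 24 tested genes) to -2.02 in cluster 1 (2.82 to 2.94 Mb, 4 tested genes). With the full coding row of each gene, the cluster 4 median was -1.46, and the shallowest was that of cluster 2 (-0.83). Cluster 3 (11.48 to 12.64 Mb) had a median of -1.91 under THZ531, with 14 of 18 genes lower and none higher, and -0.93 under AZ5576, with 15 lower.

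Cluster 4, where ZNF91, ZNF93, ZNF90 and ZNF714 lie, had 13 of 24 genes lower under AZ5576, 17 under THZ531 and 4 under YKL5124. Over all genes tested, 23.1%, 32.9% and 13.5% were lower in these comparisons, and the YKL5124 share in the cluster is near that background. Cluster 7 (43.53 to 44.50 Mb) had medians of -1.06 under AZ5576 and -1.002 under THZ531, which were -1.41 and -1.135 with the full coding row of each gene. The median difference of THZ531 and AZ5576 in it was 0.07, whereas it was -1.03 in cluster 3 and -0.74 in cluster 8. Cluster 8 (51.57 to 53.58 Mb) had 23 of 30 genes lower under THZ531. Under YKL5124 5 of the 30 were lower, a share near the all-gene background, with a median of -0.16. Cluster 10 (57.19 to 58.48 Mb), the last before the end of the long arm, had 12 of 33 genes lower under YKL5124 and a median of -0.54. Cluster 9 (55.48 to 56.67 Mb) had 7 of 13 lower under YKL5124 and a median of -0.50, which was -0.74 with full coding rows. Cluster differences were not tested, and clusters 1 and 5 held 4 and 2 tested genes.

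The largest falls under THZ531 in each cluster were in ZNF556 (-2.88, SE 0.14), ZNF846 (-2.23, SE 0.46), ZNF564 (-3.19, SE 0.28), ZNF43 (-3.11, SE 0.29), ZNF181 (-1.98, SE 0.32), ZNF527 (-2.77, SE 0.37), ZNF225 (-2.98, SE 0.24), ZNF616, ZNF583 (-2.57, SE 0.49) and ZNF606, in order along the chromosome. The last exon of ZNF564 overlaps another counted gene, AC010422.6. The value of ZNF583 was -5.05 without THZ531 replicate 3, and that of ZNF527 -3.42 without THZ531 replicate 2 and -1.49 with all rows summed. ZNF43 had 0.789 ± 0.235 CPM in THZ531, against 7.05 ± 1.08 CPM in DMSO, while its 5.17 ± 1.63 CPM in AZ5576 did not pass the test (-0.35, SE 0.19, adjusted p = 0.134). ZNF225 had 2.37 ± 0.581 CPM in AZ5576, 0.984 ± 0.388 CPM in THZ531 and 9.52 ± 0.838 CPM in YKL5124, against 7.64 ± 0.168 CPM in DMSO. Its annotated neighbour ZNF224, a KRAB repressor, had 30.6 ± 0.695 CPM in AZ5576, 18.1 ± 3.43 CPM in THZ531 and 37.5 ± 2.1702 CPM in YKL5124, against 25.96 ± 0.909 CPM in DMSO, in a retained-intron row.

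**Figure D3:**
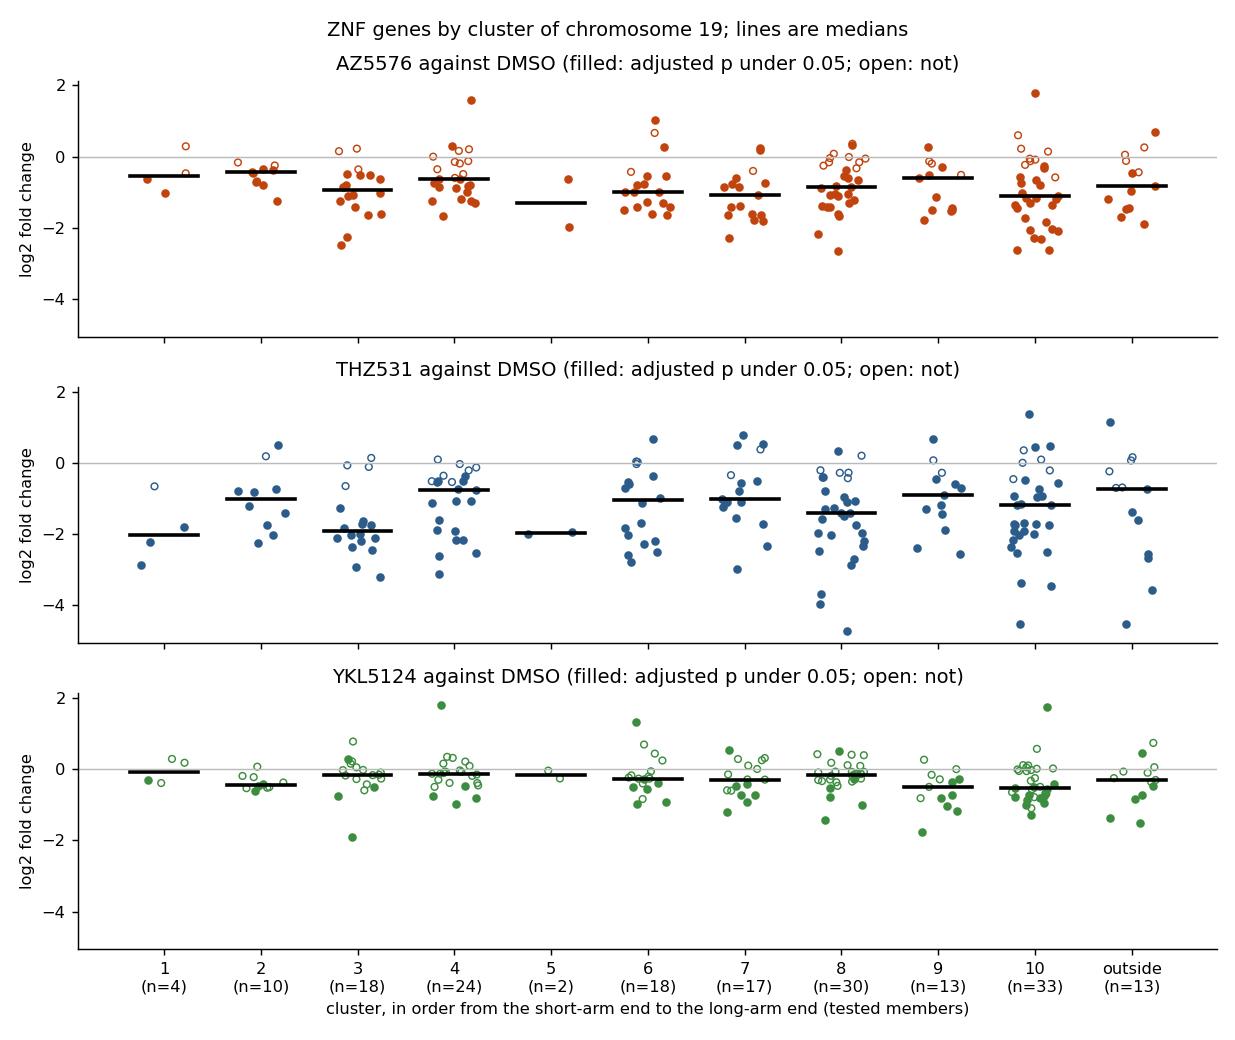
Log2 fold change of each tested member against DMSO by cluster, ordered along chromosome 19, with filled points for an adjusted p under 0.05, open points for the rest and lines for medians; horizontal spread within a cluster is random. All cluster medians are below 0, and the deepest are those of clusters 1, 3 and 5 under THZ531.

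Some members, such as ZNF274, were counted through a transcript that ends before the last exon of the full coding transcript. The counted row was that of the full coding transcript in 133 of 182 members. For 24 members, a row of a transcript that ends early and a row of a transcript with at least 80% of the longest coding sequence each had at least 120 counts, and the change of the early row minus that of the full row was tested in all 3217 genes with such a pair. Rows were chosen and kept by totals over all 12 libraries, THZ531 included, so a row could pass through the group where it was high. All 24 member pairs also had at least 30 DMSO counts in both rows. Under THZ531, 13 of the 24 member pairs shifted toward the early row and 1, ZNF507, toward the full row, where 30.1% and 8.8% of all pairs did. The median shift was 1.138 on the log2 scale for the member pairs and 0.15 for all pairs. Under AZ5576, 4 shifted toward the early row and 2 toward the full row, against 2.52% and 16.5% of all pairs. Under YKL5124 no member pair was called (edgeR adjusted p), against 1.55% and 6.28%, and at an unadjusted p under 0.05 the fit gave 3 toward the early row and 1 toward the full row. The call of ZNF507 was lost without THZ531 replicate 1, THZ531 replicate 3, DMSO replicate 2 or DMSO replicate 3, and with 1 library left out the AZ5576 counts were 2 to 4 early and 0 to 3 full. They were 2 early without AZ5576 replicate 1 or AZ5576 replicate 2, and 0 or 1 full without any 1 of the AZ5576 or DMSO libraries. These tests were added, and the members of the following paragraphs chosen, after their values had been seen.

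The last 30 bases of the early and full transcripts are shown for 3 members with called shifts (GENCODE v29 annotation, GRCh38, transcript strand, 5′ to 3′). Capitals mark the polyadenylation signal AATAAA.
ZNF274 early end, chr19:58186147-58186176, plus strand: agcatgggcaacatagaccgtgtctctatt
ZNF274 full end, chr19:58213523-58213552, plus strand: gataatgtggataAATAAActattgatcta
ZNF787 early end, chr19:56101650-56101679, minus strand: tgtaaattctccaacatgtaaggactcctt
ZNF787 full end, chr19:56087366-56087395, minus strand: tggaacAATAAAcggcactatccaaatgtc
ZNF160 early end, chr19:53084954-53084983, minus strand: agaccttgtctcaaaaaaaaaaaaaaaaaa
ZNF160 full end, chr19:53066614-53066643, minus strand: taactAATAAAatagaatggtttttctcta

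AATAAA was found in the last 50 bases of 3 of 24 early ends (12.5%) and 17 of 24 full ends (70.8%) of the members. Over all 3217 pairs it was found in 18.1% of early ends and 66.5% of full ends. A run of at least 10 A was in the last 50 bases of 5 of 24 early ends (20.8%) and 0 of 24 full ends of the members. The early ends with such a run were those of ZNF160, shown above, ZNF224, ZNF230, ZNF333 and ZNF606. All of these but ZNF333 had a called shift toward the early row under THZ531. Over all pairs such a run was in 6.81% of early ends and 1.46% of full ends. Libraries of this kind are primed on A runs, and the part of genomic A runs in the early counts was not tested. Rows of transcripts without a coding sequence cover the whole transcript, as in the retained-intron early rows of ZNF274 and ZNF160. Early counts of such rows need not lie at the annotated end.

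ZNF274, known for recruiting SETDB1 to the 3′ ends of other ZNF genes, had 51 early and 89 full counts in AZ5576, 312 early and 66 full counts in THZ531 and 155 early and 194 full counts in YKL5124, against 322 early and 283 full counts in DMSO, each summed over 3 libraries. The early share was 82.1%, 82.1% and 83.2% in THZ531 libraries, against 56.1%, 53.6% and 49.8% in DMSO libraries, a shift of 2.05 on the log2 scale (SE 0.25, adjusted p = 3.44e-06). The early row of ZNF274, 2.75 kb from the gene start, was also its counted row, so the gene level reads as a rise under THZ531 (0.45, SE 0.15), whereas the full coding row fell by 1.60 (SE 0.18). Both rows fell under AZ5576, by 2.32 (SE 0.21) in the early row and 1.37 (SE 0.17) in the full row. The THZ531 rise of the early row was not called without THZ531 replicate 3 (0.37) or with Drosophila scaling (0.09).

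ZNF606 had 54 early and 7 full counts in THZ531, against 77 early and 235 full counts in DMSO. The early share was 86.7%, 100.0% and 80.8% in THZ531 libraries, against 27.0%, 21.2% and 25% in DMSO libraries, a shift of 4.51 (SE 0.52, adjusted p = 1.44e-06). ZNF787 had 204 early and 2085 full counts in THZ531, against 33 early and 5487 full counts in DMSO, and its early share was 8.91% in THZ531, against 0.598% in DMSO (shift 4.01, SE 0.28, adjusted p = 2.60e-09). ZNF230 had 140 early and 26 full counts in THZ531, against 151 early and 171 full counts in DMSO (shift 2.60, SE 0.34). ZNF160 and ZNF93 shifted by 2.07 each (SE 0.45 and 0.32). ZNF430, ZNF440, ZNF253, ZNF600, ZNF611, ZNF83 and ZNF224 shifted by 0.80 to 1.63. With 1 library left out at a time, 10 to 13 of the 24 pairs were called toward the early row.

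**Figure D4:**
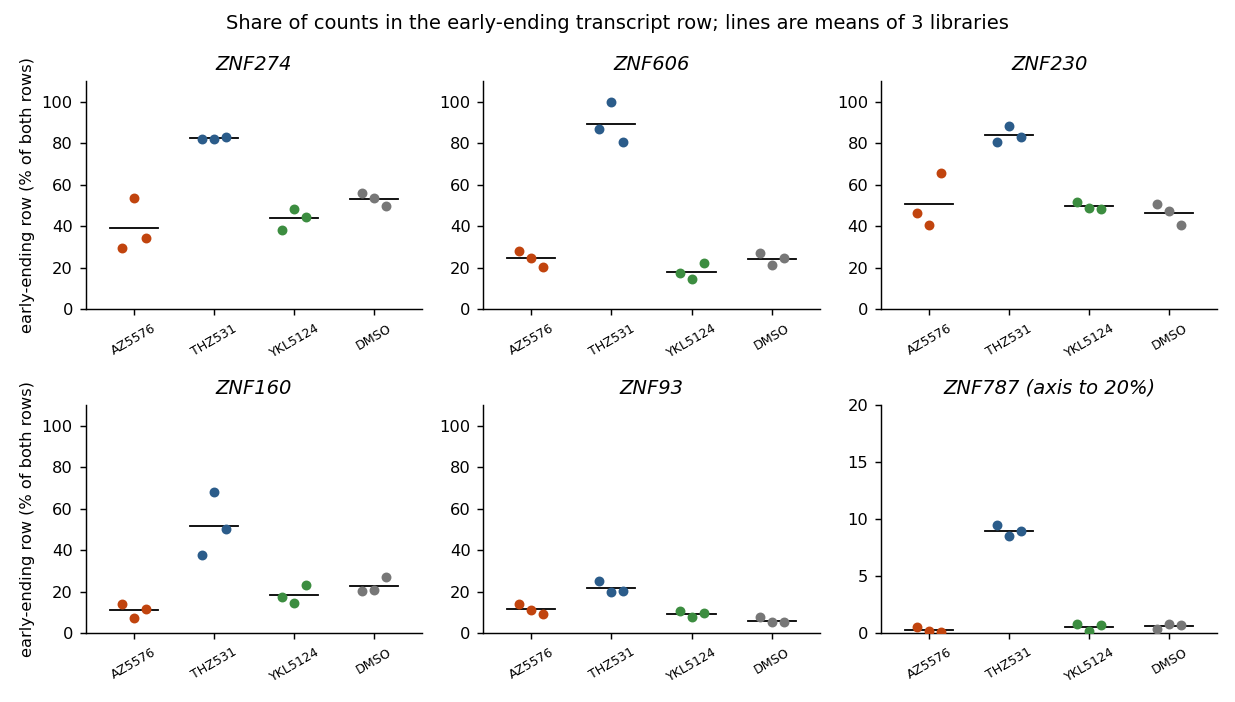
Share of counts (%) in the early-ending row, of the early and full rows together, in each library for 6 members, with lines for the mean of 3 libraries; the axis of ZNF787 ends at 20%. The THZ531 libraries lie above all DMSO libraries in each of the 6 genes, as in ZNF274 at 82.5% over the summed counts, against 53.2% in DMSO.

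The row that stands for a gene therefore matters for a few members. With the full coding row in place of the highest one, 5 members were called higher under AZ5576 in place of 10, and the medians were -0.87 under AZ5576 and -1.34 under THZ531. ZNF235, counted through a retained-intron transcript, fell under AZ5576 to 0.722 ± 0.479 CPM and rose under THZ531 to 5.37 ± 0.650 CPM, against 3.68 ± 0.568 CPM in DMSO. Its AZ5576 value of -2.28 (SE 0.31) was -3.15 without AZ5576 replicate 3. Its full coding row, with 31 DMSO counts, fell by 2.56 (SE 0.76) under AZ5576 and did not pass the test under THZ531 (0.00, SE 0.54). The full coding row of ZNF224 had -0.37 (SE 0.16) under AZ5576, -1.31 (SE 0.19) under THZ531 and 0.12 (SE 0.15) under YKL5124, and among these the THZ531 value was called.

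The members shared features that the rule did not use. A KRAB motif was found in the coding sequence of 150 of the 182. These had medians of -0.83 under AZ5576, -1.42 under THZ531 and -0.25 under YKL5124, and the 32 without it had -0.52, -0.65 and -0.37. The number of C2H2 fingers ran from 0 to 31 with a median of 12. Across the 182 genes, Spearman's rho between log2 fold change and finger number was 0.02 under AZ5576, 0.01 under THZ531 and 0.16 under YKL5124. For gene length (median 25.2 kb) it was 0.14, -0.02 and 0.19, and for the DMSO level 0.12, 0.03 and -0.05. Genes are not independent replicates, neighbours share sequence and all values share libraries, so these are descriptions. Genes of at least 40 kb, 37 in all, had a THZ531 median of -1.12, and the 67 under 20 kb one of -1.143. Members with over 20% of end words shared with other genes, 30 in all, had medians of -0.65, -1.67 and -0.21.

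RefSeq promoter windows (GRCh38.p14, 250 bases before to 50 after the start) were matched by symbol for 164 of the 182. Promoters of ZNF606, which had one of the largest falls under THZ531, and ZNF547, which rose under AZ5576 and YKL5124, are shown. Capitals mark the ETS core CCGGAAG, the CCAAT box and the GC box GGGCGG on either strand.
ZNF606 promoter, chr19:58002771-58003070, minus strand: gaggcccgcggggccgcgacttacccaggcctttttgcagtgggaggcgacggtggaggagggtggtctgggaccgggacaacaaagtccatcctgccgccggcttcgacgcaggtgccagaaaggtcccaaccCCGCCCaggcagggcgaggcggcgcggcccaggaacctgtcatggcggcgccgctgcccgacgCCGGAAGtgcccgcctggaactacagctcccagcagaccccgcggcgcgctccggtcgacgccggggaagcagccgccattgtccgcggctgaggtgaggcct
ZNF547 promoter, chr19:57363301-57363600, plus strand: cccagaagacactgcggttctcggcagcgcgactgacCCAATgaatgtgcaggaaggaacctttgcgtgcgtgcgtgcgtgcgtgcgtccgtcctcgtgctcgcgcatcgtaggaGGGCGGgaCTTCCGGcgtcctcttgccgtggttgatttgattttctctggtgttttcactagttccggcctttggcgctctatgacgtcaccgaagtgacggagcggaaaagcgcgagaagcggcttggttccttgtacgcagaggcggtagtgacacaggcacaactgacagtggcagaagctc

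The letters CCGGAAG, the core of sites for ETS factors, were present in 80 of 164 member promoters (48.8%), in 20.1% of 9098 promoters of other tested coding genes and in 10.3% of all 35116 promoters of the table. CCAAT was present in 52.4% of member promoters, against 36.8% of the other tested genes and 34.6% of all. GGGCGG, the GC box, was present in 65.2%, against 70.9% and 45.0%, TATAAA in 2.44%, against 5.35% and 11.5%, and the NRF1 motif in 0.61%, against 2.42% and 1.24%. Each was searched on both strands, and matches may overlap another motif. The 80 members with CCGGAAG had medians of -0.81 under AZ5576, -1.33 under THZ531 and -0.28 under YKL5124, and the 84 without it had -0.79, -1.139 and -0.27. A match describes letters, not a bound site, and the similarity of tandem copies means that promoters are not independent.

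**Figure D5:**
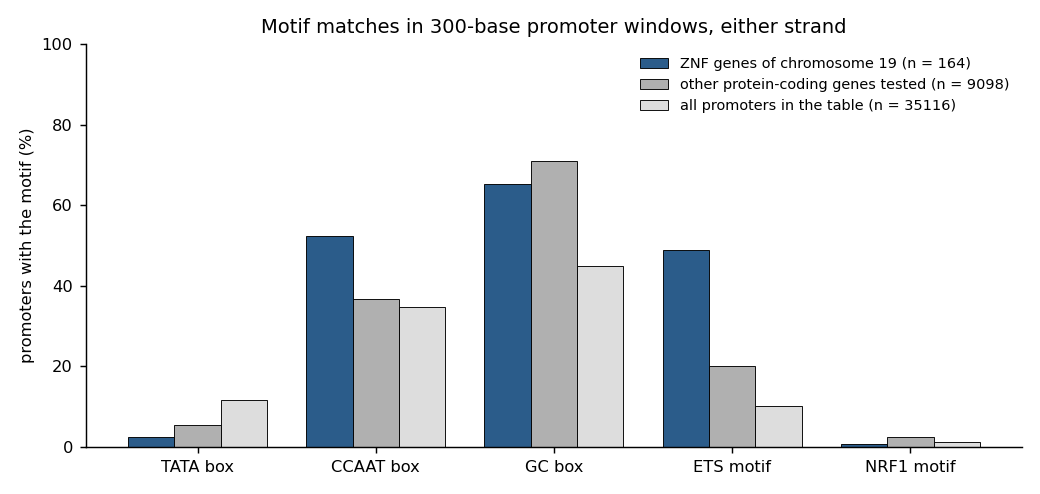
Share of 300-base promoter windows (%) with each motif on either strand, for the ZNF genes of chromosome 19, other tested protein-coding genes and all promoters of the table. The ETS motif was in 48.8% of member promoters, against 20.1% and 10.3%.

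Of a list of 28 genes of KRAB corepressors and related chromatin factors, not all of them recruited by KRAB proteins, 27 were tested. Under AZ5576, 5 (18.5%) were lower and 8 (29.6%) higher, against 23.1% and 18.6% of all genes. Under THZ531, 8 (29.6%) were lower and 15 (55.6%) higher, against 32.9% and 30.4%. Under YKL5124, 5 (18.5%) were lower and 1 (3.70%) higher, against 13.5% and 7.25%. The shares called lower were near those of all genes. TRIM28, the direct partner of KRAB boxes, had 96.0 ± 4.99 CPM in THZ531, against 60.4 ± 2.85 CPM in DMSO (log2 fold change 0.67, SE 0.07, adjusted p = 1.01e-09). It had 0.06 (SE 0.07) under AZ5576 and 0.03 (SE 0.07) under YKL5124, and neither passed the test; with Drosophila scaling these were -0.133 and -0.0374. SETDB1, which places H3K9 methylation at KRAB targets, fell to 14.3 CPM in AZ5576, 4.18 CPM in THZ531 and 15.2 CPM in YKL5124, against 19.8 CPM in DMSO (-0.46, -2.23 and -0.39). The YKL5124 call was lost without DMSO replicate 3 (-0.34), and with all rows of SETDB1 summed the THZ531 value was -0.48. Its partner ATF7IP fell by 2.18 (SE 0.09) and the demethylase KDM4A by 2.165 (SE 0.07) under THZ531. Among the 15 higher under THZ531, besides TRIM28, were HDAC1 (0.71, SE 0.06), HDAC2 (0.62, SE 0.07) and MTA2 (0.62, SE 0.08).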

How the data were processed

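The authors deposited a table of whole-number counts, named as total read counts, for the 12 libraries. It has 256726 human and 38374 Drosophila rows, and counts are used as deposited. Per the labels' protocols, 1000000 cells were used per treatment, 5% Drosophila S2 cells were added, and libraries were QuantSeq 3′ FWD, which reads transcript ends. Trim Galore 0.6.5, bcl2fastq 2.17.1.14 and edgeR 3.32.1 appear in the submitters' processing notes, as do the dm6 and hg38 builds. The aligner, strand setting, counter and handling of multi-mapped reads were not given in the sources used here, so genes that overlap or share sequence are uncertain. Compared with GENCODE v29, rows are 3′ UTR blocks of coding transcripts and whole non-coding transcripts. The same read can stand in several rows: their sum was 3.30 to 3.40 times the count of 1 row per gene. Rows without a gene name, 0.655% to 0.719% of counts, were left out.

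The row with the highest total stood for each gene. Genes were filtered with filterByExpr (minimum count 10), scaled by TMM over human genes and tested with edgeR 4.0.16 (quasi-likelihood test, R 4.3.3) in 1 fit of all 12 libraries with group as the term, with Benjamini-Hochberg adjustment over 15831 genes. Standard errors are the fold change divided by the root of F. Depth bounds precision: a fold change of a gene with few counts has a wide interval. Same-group libraries differed by more than sampling noise (chi-square per gene 1.74 to 5.00), so none was counted as a copy. Alternatives were other scalings, DESeq2 1.42.0, filters, row choices and leaving out each library. The 24 pairs of an early and a full coding row were fitted with the library as a block. Scripts were tested on simulated data. Fingers and KRAB motifs were counted in translated GENCODE coding sequences in place of RefSeq proteins. Members and lists were chosen with earlier results of these data known. Genes are named where they had the 8 largest falls or 5 largest rises against DMSO, or the 3 largest differences each way between inhibitors, among calls with at least 2 CPM and no overlap. Also named are the 5 highest in DMSO, the 5 with the widest opposite calls, the largest THZ531 fall of each cluster, and members and corepressors with a known role.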

Additional observations from a re-analysis of the deposited data

How the results depend on the processing

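The median of the members kept its sign in each comparison under every alternative run. With at least 600 counts 91 members were left, and a minimum count of 30 left 144. For other moves the cause was not tested. Shares of all genes called lower or higher were not counted for the alternatives, so member counts under an alternative cannot be set against a background. For AZ5576 against DMSO, 64 were lower with at least 600 counts. Higher calls there were 4 with library size alone, 3 with Drosophila scaling, 4 with DESeq2, 5 without a filter, 6 with a minimum count of 30, 5 with rows summed and 5 with the full coding row. The median was -0.91 with library size alone, -0.97 with Drosophila scaling, -0.87 with the full coding row and -0.59 with at least 600 counts. For THZ531, 74 were lower with at least 600 counts, higher calls were 4 with library size alone and 3 with Drosophila scaling, and the median was -1.47 (library size), -1.55 (Drosophila), -1.24 (minimum count 30), -1.22 (only the 6 libraries compared), -1.14 (rows summed), -1.26 (row highest in DMSO) and -1.34 (full coding row). For YKL5124, 34 were lower with at least 600 counts, 12 higher with upper quartile scaling, and the median was -0.21 with that scaling, -0.34 with Drosophila scaling and -0.24 with DESeq2.

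Between THZ531 and AZ5576, 54 were lower and 21 higher with at least 600 counts, and the median was -0.47 (upper quartile), -0.59 (library size), -0.60 (Drosophila), -0.38 (rows summed) and -0.48 (at least 600 counts). Between YKL5124 and AZ5576, lower calls were 2, 2, 3 and 3 with library size, Drosophila scaling, DESeq2 and rows summed, higher calls 50 with at least 600 counts, and the median 0.61, 0.61, 0.59 and 0.41 with library size, Drosophila scaling, full coding row and at least 600 counts. Between YKL5124 and THZ531, lower calls were 12 with library size, 11 with Drosophila scaling and 13 with at least 600 counts, higher calls were 62 with at least 600 counts, and the median was 1.22 with library size, 1.25 with Drosophila scaling, 1.06 with the full coding row and 1.04 with at least 600 counts.

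Leaving out 1 library gave 112 to 128 lower, 5 to 12 higher and medians of -0.81 to -0.78 for AZ5576. It gave 130 to 136, 8 to 13 and -1.24 to -1.18 for THZ531, and 42 to 54, 6 to 8 and -0.31 to -0.24 for YKL5124. Between inhibitors it gave 73 to 83, 36 to 40 and -0.47 to -0.42 for THZ531 and AZ5576, 2 to 6, 58 to 80 and 0.47 to 0.52 for YKL5124 and AZ5576, and 15 to 21, 104 to 113 and 0.90 to 1.08 for YKL5124 and THZ531.

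Values that turned their sign were those of ZNF274 for THZ531 and AZ5576 (full coding row -0.23) and for THZ531 (rows summed -1.02, full coding row -1.60), ZNF224 for AZ5576 (full coding row -0.37), ZNF428 for AZ5576 (Drosophila -0.0229), ZNF331 for THZ531 (Drosophila -0.0365), ZNF90 for THZ531 (library size -0.19, Drosophila -0.26), ZNF304 for YKL5124 (upper quartile 0.0116), and TRIM28 for AZ5576 (library size -0.0641, Drosophila -0.133) and YKL5124 (Drosophila -0.0374, rows summed -0.00836). Without 1 library, signs also turned for ZNF90 under THZ531 (-0.0064 to 0.27) and YKL5124 (-0.18 to 0.10), for ZNF304 (-0.15 to 0.00605) and ZNF331 (-0.17 to 0.00913) under YKL5124, and for TRIM28 under YKL5124 (-0.00288 to 0.0659).

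Same-numbered libraries did not visibly deviate together (correlations -0.10 to 0.07). Counting noise weighs on such correlations, so they cannot tell whether same-numbered libraries were prepared together. With the replicate block, lower and higher members were 126 and 8 for AZ5576, 135 and 11 for THZ531, 52 and 7 for YKL5124, 82 and 40 for THZ531 and AZ5576, 5 and 77 for YKL5124 and AZ5576, and 20 and 111 for YKL5124 and THZ531. Of 110 results for named genes, 81 kept direction and call under every alternative.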
